A study of Mus musculus with 9 samples.

Results

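The comparison set 3 arrays of mouse myoblasts overexpressing Pax7 against 3 arrays of myoblasts overexpressing Pax3, which are 6 of the 9 arrays of the series. Myoblasts are the dividing precursor cells of skeletal muscle. All cells were of Balb/c background. Their growth medium was Ham's F10, to which 20% FBS and 4 ng/ml bFGF had been added, a mixture that keeps myoblasts dividing. The 3 remaining arrays held myoblasts with an empty vector, titled CTAP Control, and served only as a reference level for each gene. The labels do not give the vector or promoter behind the overexpression, whether a line was 1 clone or a pool, or whether triplicates were grown as separate cultures. The p-values reflect only the spread among these arrays, which may be technical. A gene was taken as the probe set that carried exactly 1 gene symbol and had the highest mean over all 9 arrays, which gave 19661 genes. Values are log2 intensities after RMA, so that 1 unit is a factor of 2, and a difference is always Pax7 minus Pax3 unless stated otherwise. Levels of different genes are not comparable on this scale, because probe sets differ in brightness.

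Pax3 and Pax7 are closely related transcription factors, each with a paired domain and a homeodomain that bind DNA. Pax3 acts in muscle precursors of the embryonic dermomyotome and of those that migrate into the limbs, while Pax7 is the classical marker of satellite cells, from which adult muscle regenerates. In the muscle programme, the MyoD family of helix-loop-helix factors (Myf5, Myod1, Myog, Myf6) works with Mef2 factors to switch on the genes of fusion, of the sarcomere and of calcium handling as precursors leave the cell cycle.

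The Pax3 and Pax7 arrays correlated with each other at r = 0.9934 to 0.9943 across genes, which are not independent replicates, and arrays within each of these groups at 0.9974 to 0.9991. The median over genes lay between 6.861 and 6.877 in the Pax3 arrays and between 6.845 and 6.856 in the Pax7 arrays. Most markers of muscle precursors were at high levels in both groups: Myod1 averaged 12.50 and 12.18, Myf5 11.37 and 11.42, Cdh15 10.06 and 10.15, and Ncam1 11.67 and 11.08 in Pax3 and Pax7 arrays. Msc, a further marker, was low at 5.78 and 5.77. The control arrays carried signal of Y-linked genes (Uty averaged 9.27) and low Xist (4.77), whereas Pax3 and Pax7 arrays carried Xist (11.96 and 11.72) and low Uty (3.85 and 3.77). The source of the cells and the vector therefore cannot be told apart in any distance to the control level. RMA summarises probes by medians over arrays, and identical values arise: 340 genes (1.73%) had 3 identical Pax3 values and 362 (1.84%) had 3 identical Pax7 values. For such genes the SD of the group is 0 and understates the spread.

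The overexpressed factors separated the groups in the labelled direction. Pax3 read 11.10, 11.01 and 11.04 in Pax3 arrays, 6.80, 6.87 and 6.80 in Pax7 arrays, and 5.91, 5.78 and 5.80 in control arrays. Pax7 read 12.25, 12.31 and 12.27 in Pax7 arrays, 8.15, 8.26 and 8.14 in Pax3 arrays, and 10.47, 10.45 and 10.60 in control arrays. The Pax7 level of the control arrays thus stood between those of both overexpressing groups. The difference was -4.23 ± 0.0441 (SE, 3 arrays a group) for Pax3 and 4.09 ± 0.0471 for Pax7, with limma adjusted p of 2.97e-08 and 3.04e-08. The arrays do not separate endogenous transcripts from those of the introduced copy. Of 9 Pax family genes measured, Pax9 was the third past the threshold, at a difference of 0.48.

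**Figure D1:**
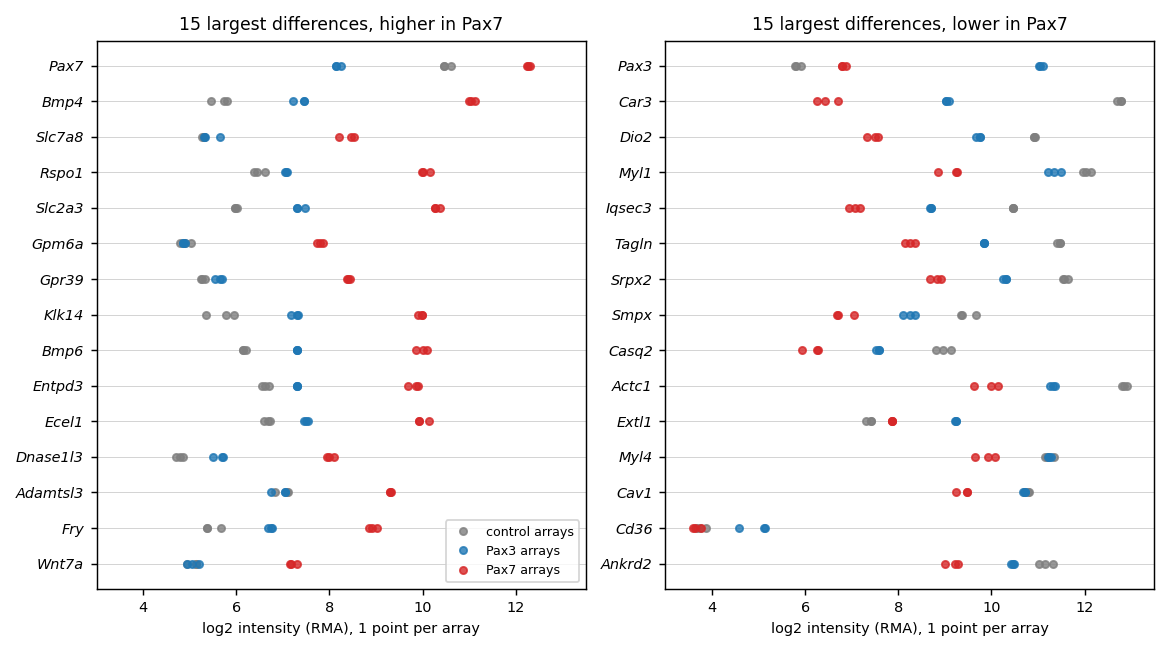
Log2 intensity in each array, with 1 point per array (control grey, Pax3 blue, Pax7 red), for the 15 largest differences in each direction. MicroRNAs and clone or predicted symbols were left out. Bmp4, Bmp6, Slc7a8, Rspo1 and Wnt7a lie highest in the Pax7 arrays, and Car3, Dio2 and Myl1 lie lowest there. Only genes without overlap between Pax3 and Pax7 arrays were eligible for the figure.

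Between the groups 2842 of 19661 genes passed an adjusted p of 0.05 in limma, 14.5% of all tested. In Pax7 arrays 1448 genes (7.36%) were higher and 1394 (7.09%) were lower. Most differences were small: the median size among genes past the threshold was 0.336 log2 units, and the median difference over all genes was 0.00674. Past the threshold and at least 1 log2 unit apart were 176 genes (0.895%), 111 higher and 65 lower. At 2 units or more there were 21 higher and 4 lower. The count of 2842 was 1807 without Pax7 replicate 2, 1853 without replicate 3 of that group and 1884 without its replicate 1, and the count of lower genes rose to 2107 without Pax3 replicate 3. All 176 genes at least 1 unit apart stayed past the threshold with any 1 array left out. The 3 Pax7 arrays lay wholly above or below the 3 Pax3 arrays in 5771 genes (29.4%), and all 2842 genes past the threshold were among them.

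**Figure D2:**
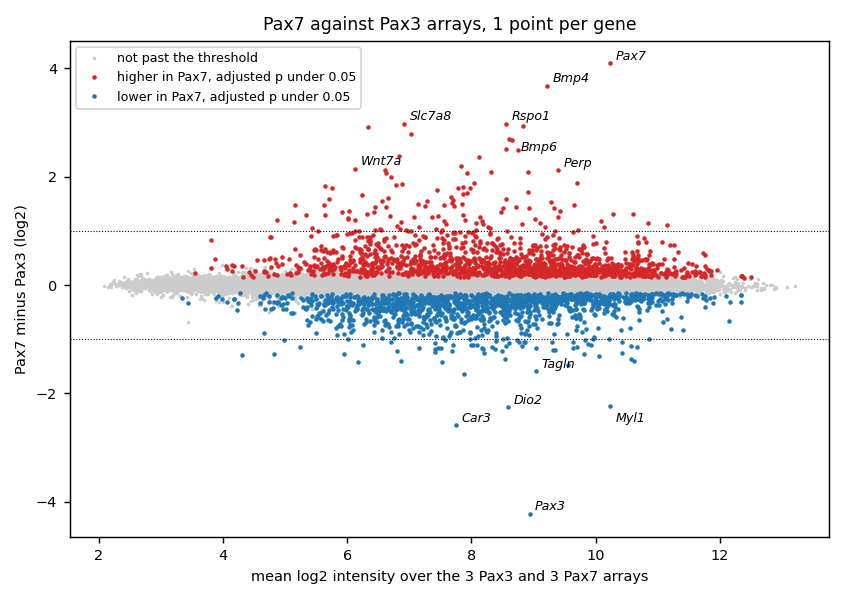
Difference in log2 intensity (Pax7 minus Pax3) against the mean level of the 6 arrays, with 1 point per gene. Coloured points passed an adjusted p of 0.05 (1448 higher, 1394 lower), and dotted lines mark 1 unit. Pax7 and Bmp4 lie highest, and Pax3 and Car3 lowest.

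After Pax7 itself, the largest rises in Pax7 over Pax3 myoblasts were those of Bmp4, Slc7a8, Rspo1, Slc2a3 and Gpm6a. Bmp4, a bone morphogenetic protein, read 7.46, 7.46 and 7.22 in Pax3 arrays and 11.13, 11.01 and 11.04 in Pax7 arrays. Its level in control arrays was 5.73, 5.45 and 5.81, below every Pax3 and Pax7 array. The difference was 3.68 ± 0.0732 (SE), 12.8-fold, with a limma adjusted p of 5.01e-07. Bmp6, a second ligand of this family, read 7.31 in each of the 3 Pax3 arrays and 9.87, 10.11 and 10.02 in Pax7 arrays, a difference of 2.68 (6.42-fold, limma adjusted p = 8.34e-07). Control arrays lay at 6.13, 6.21 and 6.15, and no array of 1 group reached another.

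Rspo1, a secreted R-spondin that strengthens Wnt signalling at the receptor, read 7.05, 7.07 and 7.09 in Pax3 arrays and 9.98, 10.15 and 10.00 in Pax7 arrays. The control arrays were lowest, at 6.43, 6.38 and 6.61, and the difference between the overexpressing groups was 2.97 ± 0.0537 (7.85-fold, limma adjusted p = 3.55e-07). Wnt7a, a Wnt ligand that acts on satellite cells and myofibres in adult muscle, read 5.05, 4.94 and 5.20 in Pax3 arrays, 4.94, 5.13 and 5.14 in control arrays and 7.17, 7.29 and 7.15 in Pax7 arrays. Pax3 and control arrays overlapped for this gene, and the Pax7 arrays stood apart by 2.14 ± 0.0736 from Pax3 (4.42-fold, limma adjusted p = 5.15e-06).

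Slc7a8, the light chain LAT2 of a transporter for neutral amino acids and thyroid hormones, also had Pax3 arrays near the control level. It read 5.31, 5.32 and 5.64 in Pax3 arrays, 5.30, 5.25 and 5.30 in control arrays and 8.54, 8.47 and 8.21 in Pax7 arrays (difference 2.98 ± 0.115, 7.9-fold, limma adjusted p = 7.45e-06). Gpm6a, a membrane glycoprotein of neurites, differed by 2.93 and also lay in Pax3 arrays (4.86, 4.90 and 4.85) at the level of control arrays (4.79, 4.90 and 5.02). Slc2a3, the glucose transporter GLUT3, rose from 7.31, 7.48 and 7.31 in Pax3 arrays to 10.37, 10.26 and 10.27 in Pax7 arrays (7.66-fold). The other genes among the 15 largest rises were the zinc-sensing receptor Gpr39 (2.78), the kallikrein protease Klk14 (2.69), the ectonucleotidase Entpd3 (2.52), the endopeptidase Ecel1 (2.50), the nuclease Dnase1l3 (2.38), the secreted ADAMTS-like protein Adamtsl3 (2.37), Fry (2.19) and Wnt7a above. Over these 15, SEs ran from 0.047 to 0.115 and the largest limma adjusted p was 7.45e-06.

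Among the genes that fell most were several of muscle. Car3, the carbonic anhydrase of slow muscle fibres, read 9.09, 9.03 and 9.03 in Pax3 arrays, 6.70, 6.42 and 6.25 in Pax7 arrays, and 12.71, 12.78 and 12.77 in control arrays. The 3 groups did not overlap, and the difference was -2.59 ± 0.105 (6.01-fold lower, limma adjusted p = 9.26e-06). Dio2, the deiodinase that converts thyroxine to active triiodothyronine, read 9.67, 9.74 and 9.74 in Pax3 arrays and 7.57, 7.50 and 7.32 in Pax7 arrays, against 10.93, 10.91 and 10.91 in control arrays. It differed by -2.26 ± 0.0677 (4.78-fold lower, limma adjusted p = 2.54e-06). Myl1, an alkali light chain of fast skeletal myosin, read 11.49, 11.35 and 11.22 in Pax3 arrays, 9.24, 9.26 and 8.86 in Pax7 arrays and 12.03, 12.14 and 11.97 in control arrays. Here the Pax3 arrays were nearer to control than to the Pax7 arrays, and the difference was -2.23 ± 0.119 (4.7-fold lower, limma adjusted p = 3.15e-05).

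The 15 largest falls were taken with microRNAs and clone or predicted symbols left out. Among them, Smpx, Actc1, Myl4 and Ankrd2 code for sarcomere or stretch-linked proteins and Casq2 for the calcium store of the sarcoplasmic reticulum. Tagln, a smooth muscle actin-binding protein, read 9.84 in each of the 3 Pax3 arrays and 8.25, 8.35 and 8.14 in Pax7 arrays (-1.59). Iqsec3 (-1.64), the secreted protein Srpx2 (-1.48), the caveolar coat protein Cav1 (-1.30) and the fatty acid transporter Cd36 (-1.28) also fell. Extl1, a glycosyltransferase, read 9.23, 9.21 and 9.24 in Pax3 arrays and 7.86, 7.87 and 7.86 in Pax7 arrays (-1.36), with control arrays lower still at 7.30, 7.41 and 7.41. Over the 15 falls, SEs ran from 0.0365 to 0.147 and the largest limma adjusted p was 0.00108.

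Genes of the sarcomere, the repeating contractile unit of striated muscle, were lower in Pax7 than in Pax3 myoblasts through nearly every part of the structure. Of 64 measured, 41 fell, 2 rose and 21 did not pass the threshold, and the median difference was -0.60. Over all genes tested 7.09% fell and the median difference was 0.00674. The 41 falls ran from -2.23 to -0.23, and 17 of them were at least 1 log2 unit. With any 1 of the 6 arrays left out, 40 or 41 members were lower.

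In the thick filament, 2 of 7 myosin heavy chains fell, the embryonic Myh3 (-1.26) and the slow Myh7 (-0.48), and the other 5 did not pass. Of 8 light chains and light chain kinases, 4 fell, among them Myl1, Myl4 (-1.36) and Mylpf (-0.98). Myl4, the light chain of embryonic muscle and atria, read 11.28, 11.21 and 11.24 in Pax3 arrays, inside the range of the control arrays (11.14 to 11.35), and 10.08, 9.93 and 9.66 in Pax7 arrays. Of 3 myosin binding proteins, Mybpc1 (-1.24) and Mybph (-1.13) fell.

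In the thin filament both sarcomeric actins fell. Actc1, the cardiac actin that developing skeletal muscle also uses, read 11.25, 11.33 and 11.37 in Pax3 arrays, 10.15, 9.98 and 9.63 in Pax7 arrays and 12.84, 12.90 and 12.80 in control arrays (difference -1.40, limma adjusted p = 0.000284). The skeletal actin Acta1 differed by -0.83. Of the 7 troponins, the calcium switch of contraction, 6 fell with a median of -1.01 over the 7, including Tnnt2 (-1.13), Tnnc1 (-1.09) and Tnni1 (-1.07). Of 9 genes of tropomyosin and other thin filament proteins, 6 fell, led by Neb (-1.15), the nebulin that sets thin filament length. Of 21 Z-disc and M-band genes 14 fell, including Ttn (-1.22), Actn2 (-1.07) and the intermediate filament gene Des (-0.81), and Cap2, an actin-binding protein, rose by 0.24. Of 7 assembly factors and muscle ubiquitin ligases 5 fell, such as Klhl41 (-0.98) and Smyd1 (-0.90), and Trim54 rose by 0.39.

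Genes that couple excitation to contraction were lower too. Of 28 genes of calcium handling and the neuromuscular junction, 17 fell, 0 rose and 11 missed the threshold. Over all genes tested 7.09% fell and 7.36% rose. The median of these 28 was -0.28. In calcium release and uptake 11 of 18 fell. Casq2, calsequestrin, read 7.59, 7.59 and 7.52 in Pax3 arrays, 6.26, 6.27 and 5.94 in Pax7 arrays and 8.97, 9.13 and 8.81 in control arrays, so that the 3 groups did not overlap (difference -1.41). The release channel Ryr1 (-1.10) and the calcium pump Atp2a1 (-1.06) fell as well. At the synapse 6 of 10 fell, led by the agrin receptor Lrp4 (-0.90) and the fetal acetylcholine receptor subunit Chrng (-0.65). Without 1 array the number of lower members in these 28 ranged from 12 to 17. In muscle energy metabolism 10 of 21 fell and 0 rose, with Car3 first, then the muscle glycogen phosphorylase Pygm (-1.16) and the muscle cytochrome oxidase subunit Cox8b (-0.87).

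**Figure D3:**
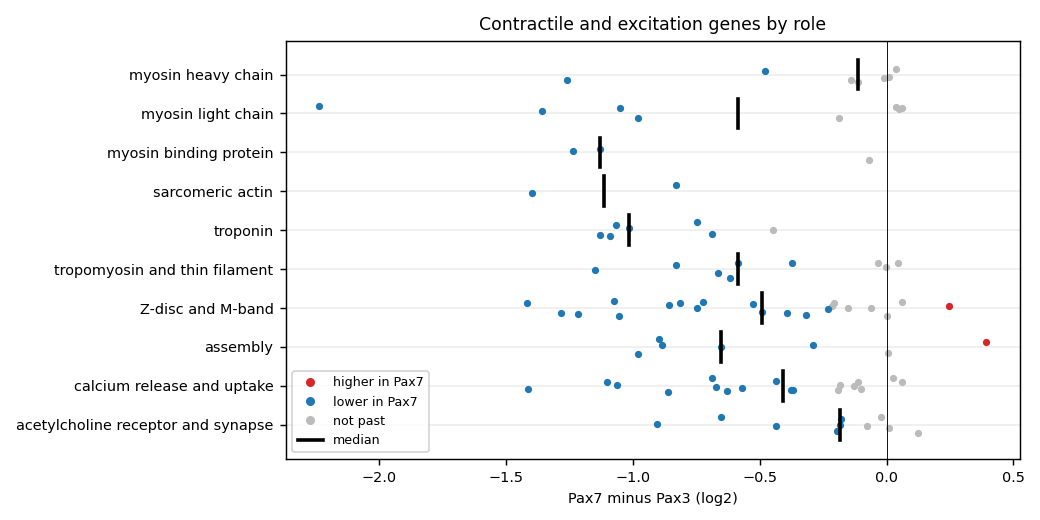
Difference in log2 intensity (Pax7 minus Pax3) of sarcomere, calcium handling and synapse genes, grouped by role, with 1 point per gene and a bar at the median of the role. Both sarcomeric actins and 6 of 7 troponins were lower in Pax7 arrays, while 5 of 7 myosin heavy chains did not pass the threshold.

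Promoters of genes that moved together were read from the RefSeq table for GRCm38.p6, which gave a window of 250 bases before the start for 15401 of the 19661 genes. Motifs known from muscle promoters were searched on both strands: the E-box CAGCTG that MyoD family factors can bind, the Mef2 site and the CArG box of serum response factor. Among the 41 sarcomere genes that fell, 34 had a window. Of these, 15 (44.1%) held CAGCTG, 6 (17.6%) a Mef2 site and 4 (11.8%) a CArG box, against 12.3%, 2.49% and 1.25% of all tested genes with a window. Over all 51 measured sarcomere genes with a window, fallen or not, the shares were 35.3%, 19.6% and 11.8%. Among the genes at least 1 log2 unit lower, 47 had a window, and 25.5%, 12.8% and 4.26% held these motifs. Among those at least 1 unit higher, 78 had a window, and 11.5% held CAGCTG, 3.85% a Mef2 site and 0% a CArG box. A palindrome of paired TAAT half-sites, which paired-class homeodomains can bind, was held by 0.266% of all tested genes with a window and GTCACGC, which paired domains can bind, by 2.62%. In the 78 higher and 47 lower genes, the first was in 0 windows and the second in 1 and 0. No 2 matches overlapped in the windows printed. A match describes letters, not bound factors.

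The windows below are from 5 sarcomere and calcium genes that fell and from the ligand genes Bmp4 and Bmp6, together with Myl4 and Dio2, which fell and hold no match. The first 5 were chosen after their matches were seen, to show each motif, and Myl4, Dio2, Bmp4 and Bmp6 because the results turn on their levels. All read 5′ to 3′ towards the start of the gene on its own strand, with matches to the muscle motifs in capitals.
Myl1, chr1:66945057-66945306, minus strand, CAGCTG 224 bases before the start: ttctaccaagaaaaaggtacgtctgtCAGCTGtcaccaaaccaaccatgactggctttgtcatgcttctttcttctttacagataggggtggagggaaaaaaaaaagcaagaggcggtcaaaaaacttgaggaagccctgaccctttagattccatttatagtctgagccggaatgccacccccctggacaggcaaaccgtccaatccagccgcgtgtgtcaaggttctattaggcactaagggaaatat
Acta1, chr8:123894776-123895025, minus strand, CAGCTG at 221 and a CArG box at 73 bases: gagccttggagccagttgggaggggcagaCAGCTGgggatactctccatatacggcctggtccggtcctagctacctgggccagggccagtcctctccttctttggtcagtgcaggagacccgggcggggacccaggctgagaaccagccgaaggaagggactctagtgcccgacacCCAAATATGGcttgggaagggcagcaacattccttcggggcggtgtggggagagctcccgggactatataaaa
Actc1, chr2:114052876-114053125, minus strand, a CArG box at 47 bases: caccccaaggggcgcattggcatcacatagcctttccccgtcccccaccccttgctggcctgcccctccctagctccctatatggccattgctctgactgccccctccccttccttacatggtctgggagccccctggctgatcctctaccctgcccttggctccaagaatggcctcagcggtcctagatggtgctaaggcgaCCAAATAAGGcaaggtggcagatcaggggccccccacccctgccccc
Klhl41, chr2:69669870-69670119, plus strand, CAGCTG at 127 and a Mef2 site at 63 bases: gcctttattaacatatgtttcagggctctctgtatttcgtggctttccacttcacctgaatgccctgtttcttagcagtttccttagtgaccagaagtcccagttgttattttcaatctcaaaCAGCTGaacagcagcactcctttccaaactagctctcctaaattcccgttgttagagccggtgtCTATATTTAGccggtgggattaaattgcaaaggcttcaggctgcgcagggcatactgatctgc
Casq2, chr3:102086165-102086414, plus strand, a Mef2 site at 69 bases: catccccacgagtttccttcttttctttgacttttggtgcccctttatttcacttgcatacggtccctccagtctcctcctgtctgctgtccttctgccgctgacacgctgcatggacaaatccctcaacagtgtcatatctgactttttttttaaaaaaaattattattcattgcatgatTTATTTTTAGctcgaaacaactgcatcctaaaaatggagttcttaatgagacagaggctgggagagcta
Myl4, chr11:104550413-104550662, plus strand, no match: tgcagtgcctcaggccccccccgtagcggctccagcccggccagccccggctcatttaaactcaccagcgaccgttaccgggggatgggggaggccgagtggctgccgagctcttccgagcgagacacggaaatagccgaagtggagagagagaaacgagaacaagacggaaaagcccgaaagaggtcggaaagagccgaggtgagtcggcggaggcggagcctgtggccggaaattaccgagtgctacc
Dio2, chr12:90739039-90739288, minus strand, no match: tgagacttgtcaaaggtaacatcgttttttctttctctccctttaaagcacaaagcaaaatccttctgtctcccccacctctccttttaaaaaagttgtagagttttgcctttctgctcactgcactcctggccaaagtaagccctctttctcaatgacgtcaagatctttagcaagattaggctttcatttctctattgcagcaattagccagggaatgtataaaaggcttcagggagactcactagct
Bmp4, chr14:46390670-46390919, minus strand, no match: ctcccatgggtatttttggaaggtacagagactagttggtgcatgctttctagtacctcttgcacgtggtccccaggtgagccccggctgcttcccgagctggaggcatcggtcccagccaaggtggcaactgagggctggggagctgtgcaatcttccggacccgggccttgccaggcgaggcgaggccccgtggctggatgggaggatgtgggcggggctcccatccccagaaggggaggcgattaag
Bmp6, chr13:38345466-38345715, plus strand, no match: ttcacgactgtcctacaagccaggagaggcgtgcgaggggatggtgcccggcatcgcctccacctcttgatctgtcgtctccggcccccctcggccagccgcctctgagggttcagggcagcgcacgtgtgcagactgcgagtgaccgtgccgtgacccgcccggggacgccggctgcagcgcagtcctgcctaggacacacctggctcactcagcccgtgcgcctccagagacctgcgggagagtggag
The Car3 and Tagln windows were not analysed here.

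The upstream regulators of the muscle programme split. Of 4 MyoD family factors, Myog fell most: it read 10.24, 10.25 and 10.32 in Pax3 arrays, 9.13, 9.26 and 9.01 in Pax7 arrays and 11.55, 11.65 and 11.50 in control arrays. The difference was -1.14 ± 0.0675 (2.2-fold lower, limma adjusted p = 5.27e-05), and the groups did not overlap. Myog, myogenin, drives terminal differentiation. Myod1 fell by 0.32 (limma adjusted p = 0.00315), while Myf5, the early determination factor, differed by 0.05 (limma adjusted p = 0.638) and Myf6 by -0.09 (limma adjusted p = 0.69). Mef2c, a partner of the MyoD family, read 8.06, 8.05 and 7.90 in Pax3 arrays and 6.80, 6.96 and 6.70 in Pax7 arrays, against 9.17, 9.49 and 9.23 in control arrays (difference -1.18 ± 0.0753, limma adjusted p = 7.29e-05). Among 26 myogenic transcription factors 9 fell, 3 rose and 14 did not pass. The share past the threshold was 46.2%, against 14.5% of all genes tested. The transcriptional cofactor Eya1 fell (-0.74), and Bhlhe40, a repressor of the helix-loop-helix class, rose (0.48).

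Both fusogens that merge myoblasts into fibres were lower in Pax7 arrays, myomaker (Mymk, -1.05) and myomixer (Mymx, -0.44). Mymx missed the threshold when Pax3 replicate 1 or Pax7 replicate 1 was left out, with a limma adjusted p of up to 0.0566. Of 23 fusion genes 7 fell and 3 rose (43.5% past the threshold, against 14.5% of all genes), the largest fall being in Tmem182 (-1.22). The surface receptors Cdon and Boc, which join myoblasts during differentiation, differed in opposite directions: Boc rose by 0.41 and Cdon fell by 0.62. The Cdon call was lost with any array other than Pax3 replicate 3 left out (limma adjusted p up to 0.113).

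The precursor of miR-206, a microRNA of skeletal muscle induced during differentiation, also differed, and it was singled out after its value was seen. Its probe set read 6.96, 6.84 and 6.84 in Pax3 arrays, 5.78, 5.56 and 5.06 in Pax7 arrays and 7.22, 7.16 and 7.16 in control arrays (difference -1.41, limma adjusted p = 0.00114). The Pax7 arrays lay below all others. The array measures the precursor or primary transcript, not the mature forms, whose RefSeq sequences are shown with the seed, bases 2 to 8, in capitals.
mmu-miR-206-3p: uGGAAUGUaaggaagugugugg
mmu-miR-206-5p: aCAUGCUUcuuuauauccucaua
The gene lies on chromosome 1 of GRCm38.p6, with the 3p form at chr1:20679055-20679076 on the plus strand. Mir133a-1 and Mir1a-1, further muscle microRNAs, differed by 0.06 and 0.07 (limma adjusted p of 0.752 and 0.658). The fall was not particular to Mir206 among microRNA genes. Mir145a and Mir181b-1 were also at least 1 log2 unit lower and kept the call with any 1 array left out. Their differences then ran from -1.41 to -1.18 and from -1.33 to -0.978.

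Markers of satellite cells and of embryonic precursors did not move together. Of 26 satellite cell genes 8 were lower, 2 were higher and 16 missed the threshold, around a median of -0.08. The 2 rises were 1 without Pax3 replicate 1 or any Pax7 array and 4 without Pax3 replicate 3. Cav1, which also marks caveolae in other cells, read 10.67, 10.73 and 10.72 in Pax3 arrays, near the control values of 10.81, 10.71 and 10.80, and 9.48, 9.25 and 9.48 in Pax7 arrays. The receptors Fgfr4 (-0.82) and Met (-0.61), both known as genes of migrating muscle precursors, fell, while the chemokine receptor Cxcr4 rose (0.74). Of 29 genes of dermomyotome and limb precursors 5 rose and 6 fell. Foxc2, a forkhead factor of paraxial mesoderm, read 7.54, 7.69 and 7.29 in Pax3 arrays, 8.81, 8.74 and 8.73 in Pax7 arrays and 8.58, 8.51 and 8.56 in control arrays (difference 1.25), so that the Pax3 arrays were the group apart. Tbx15 fell (-0.88). Among 37 Hox genes 0 rose and 6 fell, led by Hoxd8 (-0.76) and Hoxd13 (-0.64), with 31 not past the threshold and 2 rises without Pax3 replicate 3. The Hox share past the threshold, 16.2%, was near the 14.5% of all genes tested. It was 38.5% for the satellite cell genes and 37.9% for the dermomyotome and limb precursor genes.

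In the BMP pathway the largest differences were those of the ligands Bmp4 and Bmp6, and members past the threshold lay in both directions. BMP ligands bind paired serine/threonine kinase receptors, whose Smad mediators induce Id genes, and antagonists such as follistatin bind related ligands outside the cell. Of 58 genes measured 8 rose, 7 fell and 43 missed the threshold, so that 25.9% passed, against 14.5% of all genes tested. The median was 0.05. The counts were 5 higher without Pax3 replicate 1 or Pax7 replicate 2, and 3 or 4 lower without Pax3 replicate 2 or any Pax7 array. Of 15 ligands Bmp4 and Bmp6 rose and Gdf6 fell (-0.59). Of 13 antagonists follistatin (Fst) rose by 0.81 and 3 fell. Fst read 7.75, 7.48 and 7.66 in Pax3 arrays, 8.36, 8.47 and 8.48 in Pax7 arrays and 10.74, 10.97 and 10.88 in control arrays, so both groups were below control. The mediator Smad9 rose (0.80), and the co-receptor Hjv, hemojuvelin, fell (-0.74). Of 15 targets and inhibitory Smads, 2 rose and 1 fell. The target genes Id1 (0.10, limma adjusted p = 0.394), Id2 (-0.03, limma adjusted p = 0.756) and Id3 (0.16, limma adjusted p = 0.282) did not pass. Id4 and the inhibitory Smad6 were higher and passed. With 1 array left out their differences ran from 0.437 to 0.602 and from 0.248 to 0.278. Smad6 kept the call throughout. The Id4 call was lost without Pax3 replicate 1 or 2 or Pax7 replicate 2 or 3 (limma adjusted p up to 0.0856).

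In the TGF-beta, myostatin and activin branch 9 of 28 genes rose and 4 fell, with 5 rises without any of the Pax7 arrays and 2 falls without Pax3 replicate 2 or Pax7 replicate 2. The share past the threshold was 46.4%, against 14.5% of all genes tested. Inhbb, the activin B subunit, rose by 1.05, and the co-receptor Tgfbr3, betaglycan, by 1.03. Smad3 (0.57) and the target Ccn2 (0.68) rose as well. Tgfb2 fell by 0.60. Inhba, the activin A subunit, was lower, by -0.695 to -0.42 with 1 array left out. The Inhba call was lost with any array other than Pax3 replicate 3 left out (limma adjusted p up to 0.112). Mstn, myostatin, which restrains muscle growth, fell by 0.76. Its call was lost without Pax3 replicate 1, Pax3 replicate 2 or Pax7 replicate 2, with a limma adjusted p of up to 0.0634.

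Among Wnt genes 8 of 61 rose, 6 fell and 47 did not pass, with 10 falls without Pax3 replicate 3 and 3 without Pax7 replicate 1. The share past the threshold was 23% for Wnt and 25.8% for Notch genes, against 14.5% of all genes tested. Of 16 Wnt ligands Wnt7a and Wnt4 (0.48) rose, the latter not with every array left out (limma adjusted p up to 0.0756). Of 24 R-spondins and receptors 5 rose, namely Rspo1, the ligase Rnf43 that removes Frizzled receptors (0.99), Fzd1 (0.94), Lgr6 (0.47) and Fzd4 (0.38), and Fzd8 (-0.60) and Fzd2 (-0.40) fell. Fzd4 and Fzd2 lost the call without several of the arrays (limma adjusted p up to 0.17 and 0.0653). Among 10 Wnt targets and effectors 1 rose and 2 fell. Tcf7l1 was higher, by 0.515 to 0.554 with 1 array left out, and Apcdd1 lower, by -0.442 to -0.35. Lef1 was also lower (-0.31 to -0.233). Its call was lost without Pax3 replicate 1 or Pax7 replicate 1 or 3 (limma adjusted p up to 0.0661). Axin2, a common target of beta-catenin, differed by 0.05 (limma adjusted p = 0.567). In the Notch pathway 3 of 31 rose (5 without Pax3 replicate 3) and 5 fell (3 without Pax7 replicate 2 or 3), among them the receptor Notch1 (0.51) and the ligand Dll1 (-0.50). The probe set used for Maml2 gave -0.48 and its other probe set -0.05.

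**Figure D4:**
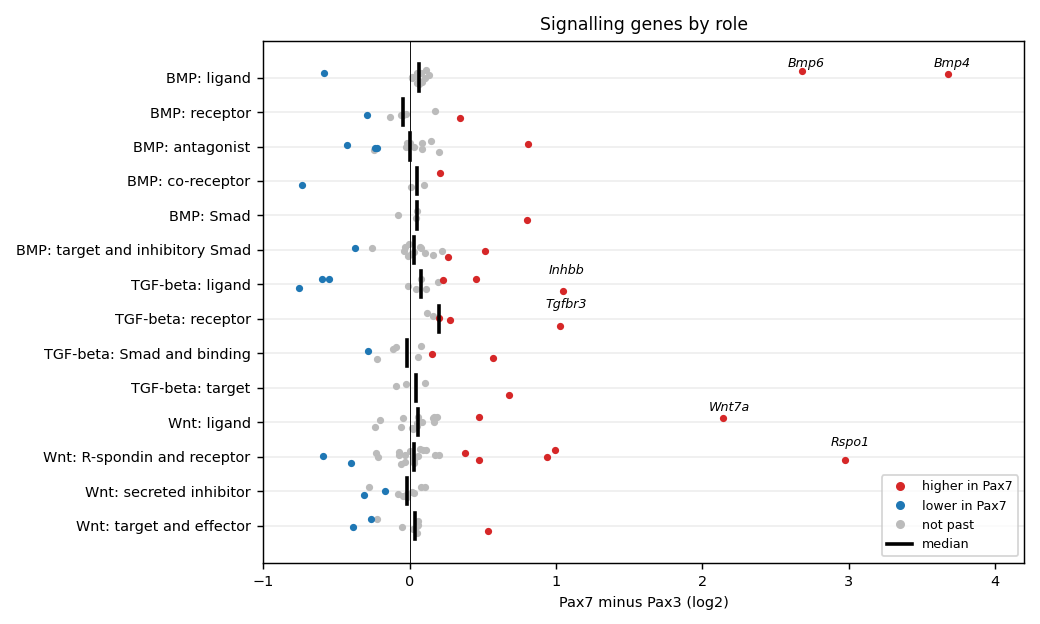
Difference in log2 intensity (Pax7 minus Pax3) of BMP, TGF-beta and Wnt genes by role, with 1 point per gene and a bar at the median of the role. Bmp4, Bmp6, Rspo1 and Wnt7a lie beyond 2 units, and the medians of the roles lie between -0.05 and 0.20.

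Genes of receptor tyrosine kinase signalling and of its feedback rose more often than they fell. Of 44 measured, 12 rose and 7 fell, with a median of 0.07 and 4 falls without Pax3 replicate 1 or any Pax7 array. Over all genes tested 7.36% rose and 7.09% fell. The rises in this list numbered 9 to 12 with 1 array left out. In the test against a minimum fold of 1.2 there were 4 rises and 2 falls. Among 12 feedback genes, which the MAPK pathway induces and which restrain it, 6 rose and 0 fell, including Spry4 (0.71), Dusp6 (0.56) and Etv4 (0.41). Of 12 EGF receptors and ligands 5 rose and 0 fell, led by the ligand Tgfa (0.67) and the receptor Erbb2 (0.47). Of 13 FGF receptors and ligands 4 fell, led by Fgfr4, and Fgfr2 rose (0.44). In the 7 genes of PDGF and HGF signalling the direction was the opposite, with 3 lower, 0 higher and a median of -0.189.

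Imprinted genes and the insulin-like growth factor axis changed in both directions. Of 28 measured, 6 rose, 7 fell and 15 did not pass, so that 46.4% passed, against 14.5% of all genes tested. Igf2, a growth factor that differentiating myoblasts secrete, averaged 10.95 in Pax3 arrays, 10.15 in Pax7 arrays and 12.30 in control arrays (difference -0.80). The neighbouring imprinted genes Peg10 (-1.14) and Sgce (-1.05) both fell. The adaptor Grb10 read 8.93, 8.96 and 8.72 in Pax3 arrays, 7.94 in all 3 Pax7 arrays and 5.54, 5.59 and 5.34 in control arrays. Among binding proteins Igfbp7 fell (-0.99), and the RNA-binding protein Igf2bp1 rose (0.78).

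Besides Dio2 and Slc7a8, the thyroid hormone genes past the threshold were Crym, which binds thyroid hormone in the cytosol (1.70), the transporter Slc16a10 (-0.54) and the receptor Thra (-0.24). They were 2 higher and 3 lower of 19, or 26.3% past the threshold, against 14.5% of all genes tested. None of the 5 target genes passed, and the smallest limma adjusted p among them was 0.0619. Of 34 amino acid transporters 4 rose and 8 fell (35.3% past the threshold). The cystine transporter Slc7a11 (1.10) rose beside Slc7a8, and Slc43a1, a carrier of neutral amino acids (-0.98), and the cationic carriers Slc7a3 (-0.47) and Slc7a2 (-0.45) fell.

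Smooth muscle, matrix and adhesion genes also differed, where over all genes tested 7.09% fell and 7.36% rose. Of 22 smooth muscle and stress fibre genes 7 fell and 0 rose, with Tagln first, then the regulatory light chain Myl9 (-1.13) and Des, which skeletal muscle also expresses. Of 52 extracellular matrix and fibroblast genes 14 fell and 9 rose, the rises being 4 or 5 without Pax3 replicate 1 or any Pax7 array. In the test against a minimum fold of 1.2, 9 of the 52 fell and 0 rose. The falls included Fbln2 (-1.20), the crosslinking enzyme Loxl1 (-0.97), the gelatinase Mmp2 (-0.95) and the fibrillar collagen Col3a1 (-0.62), and the basement membrane collagens Col4a1 (0.21) and Col4a2 (0.25) were higher. The call of Col4a1 was lost without Pax3 replicate 1 or any Pax7 array (limma adjusted p up to 0.107). Of 31 integrin and basement membrane genes 7 rose and 5 fell. Itgb3 (1.25) and the laminin chain Lama3 (1.04) rose, and Itgb6 fell (-0.95).

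Genes of replication passed the threshold at near the share of all genes tested, 13.3% against 14.5%, and genes of mitosis at 3.23%. Of 30 genes of DNA replication 1 rose (E2f2, 0.47) and 3 fell, and of 31 genes of mitosis only Nuf2 passed (-0.25), with a median over the 31 of -0.09. All 31 differences lay below 0, the smallest at -0.01. Over all 19661 genes tested, 9328 had a Pax7 mean no higher than the Pax3 mean. With 1 array left out, the number of lower mitotic genes ranged from 1 to 9, the 9 without Pax3 replicate 3, and 0 replication genes fell without Pax7 replicate 2 or 3. In the list of D cyclins, Cdk inhibitors and p53 genes 8 of 24 fell and 1 rose, with 4 or 5 falls without any array other than Pax3 replicate 3. The share of that list past the threshold was 37.5%. The growth arrest gene Gas1 differed by -0.56 and Rb1, the retinoblastoma protein, by -0.36, whereas the Cdk inhibitor Cdkn1c differed by -0.01 (limma adjusted p = 0.934).

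Some genes known from epithelia were higher in Pax7 arrays, while E-cadherin was at 1 low level in every group. Of 27 measured, 9 rose and 2 fell, with a median of 0.08 and 40.7% past the threshold, against 14.5% of all genes tested. Perp, a protein of desmosomes and a p53 target, read 8.37, 8.37 and 8.27 in Pax3 arrays, 10.53, 10.44 and 10.40 in Pax7 arrays and 7.59, 7.79 and 7.83 in control arrays (difference 2.12). The keratin Krt18 read 7.08 in all 3 Pax3 arrays and 8.72, 8.86 and 9.02 in Pax7 arrays (1.79). The splicing regulator Esrp2 (1.57) and plakoglobin, Jup (1.30), rose too, and the plakophilin Pkp1 fell (-0.70). E-cadherin, Cdh1, averaged 5.35 in Pax3, 5.38 in Pax7 and 5.35 in control arrays, and Epcam 5.20 in Pax3 and 5.73 in Pax7 arrays. The mean over the list ran from 6.70 to 6.76 in Pax3, 7.03 to 7.06 in Pax7 and 6.09 to 6.16 in control arrays. In bulk RNA, more cells of a type and more RNA per cell cannot be told apart. Whether other cells had a part in these differences was not tested.

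Lists of other cell types held some genes past the threshold in either direction. The shares past it were 15.8% for endothelial and 15% for leukocyte genes, near the 14.5% of all genes tested. They were 20% for bone and cartilage, 34.8% for adipocyte, 22.2% for neuronal and 21.7% for neural crest genes. Of 19 endothelial genes 3 rose, led by the receptor activity modifier Ramp2 (1.89), while the defining genes Pecam1 (5.91 and 5.93) and Cdh5 (5.65 and 5.80) averaged low levels in Pax3 and Pax7 arrays. The mean of this list ran from 5.780 to 5.921 in Pax3 and from 5.995 to 6.027 in Pax7 arrays. Of 20 leukocyte genes 2 rose and 1 fell, with the tetraspanin Cd53 (1.29) and the macrophage sialomucin Cd68 (0.68, from 8.72 to 9.40) higher. Ptprc, the pan-leukocyte marker, averaged 4.74 and 4.73. The list mean ran from 5.52 to 5.59 in Pax3, 5.63 to 5.64 in Pax7 and 5.16 to 5.27 in control arrays. Of 23 adipocyte genes 5 rose and 3 fell: the desaturase Scd1 rose (1.88), Cd36 fell, and Adipoq averaged 4.52 and 4.63. This list mean ran from 6.601 to 6.653 in Pax3 and 6.698 to 6.734 in Pax7 arrays. Of 20 bone and cartilage genes the proteoglycan Acan rose most (1.60), among 3 that rose and 1 that fell, and the list mean ran from 5.796 to 5.917 in Pax3 and 5.961 to 5.993 in Pax7 arrays. In each of these 4 lists every Pax7 array lay above every Pax3 array, and the part of other cells was not tested. Among single genes 29.4% of all tested had no overlap between the groups. The matrix and fibroblast list mean lay lower in Pax7 (7.568 to 7.600) than in Pax3 arrays (7.695 to 7.739). In Pax3 and Pax7 arrays the neuronal means (6.312 to 6.393 and 6.381 to 6.419) and neural crest means (6.516 to 6.647 and 6.594 to 6.619) overlapped. Neuronal genes (5 of 27 higher, 1 lower, led by Map2 at 0.60) and neural crest genes (2 of 23 higher, 3 lower, with Sox10 at 6.21 and 6.25) completed the lists. The neuronal rises numbered 1 to 3 without Pax3 replicate 1 or any Pax7 array, the neural crest falls 0 without Pax7 replicate 1 or 3, the adipocyte rises 3 without Pax3 replicate 1 or Pax7 replicate 1 or 3, and the endothelial rises 5 without Pax3 replicate 3.

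Metabolic and response genes showed few shared directions. For reference, 7.36% of all genes tested rose and 7.09% fell. Of 20 cholesterol synthesis genes 8 rose and 0 fell, with a median of 0.14 and Msmo1 highest (0.54), but 3 or 4 were higher without Pax3 replicate 1 or any Pax7 array. In the test against a minimum fold of 1.2, 0 of the 20 rose and 0 fell. Of 29 hypoxia and glycolysis genes 5 rose (3 without Pax7 replicate 3) and 2 fell, and besides Slc2a3 the phosphofructokinase Pfkp rose (1.21). Interferon response genes divided. Isg20, an exonuclease, read 7.87, 7.92 and 7.78 in Pax3 arrays, 9.98, 9.95 and 9.93 in Pax7 arrays and 8.85, 8.98 and 8.82 in control arrays (4.27-fold higher), and Irgm1 rose (1.46), whereas Rtp4 (-0.79), Ifih1 (-0.72) and Ifit1 (-0.63) fell among 3 higher and 4 lower of 27 (7 lower without Pax3 replicate 3). Of 36 cytokine and chemokine genes 4 rose and 3 fell (2 rises without Pax7 replicate 2, and 1 fall without Pax3 replicate 2 or any Pax7 array), with Il6 at 0.84 and Cxcl12, the ligand of Cxcr4, at -0.95. Of 29 genes of the unfolded protein and amino acid stress responses 3 rose and 6 fell, the largest change being -0.34 in Cth. The rises numbered 0 without Pax3 replicate 1 or Pax7 replicate 1 or 3. Against a minimum fold of 1.2, 0 of these 29 rose and 0 fell.

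**Figure D5:**
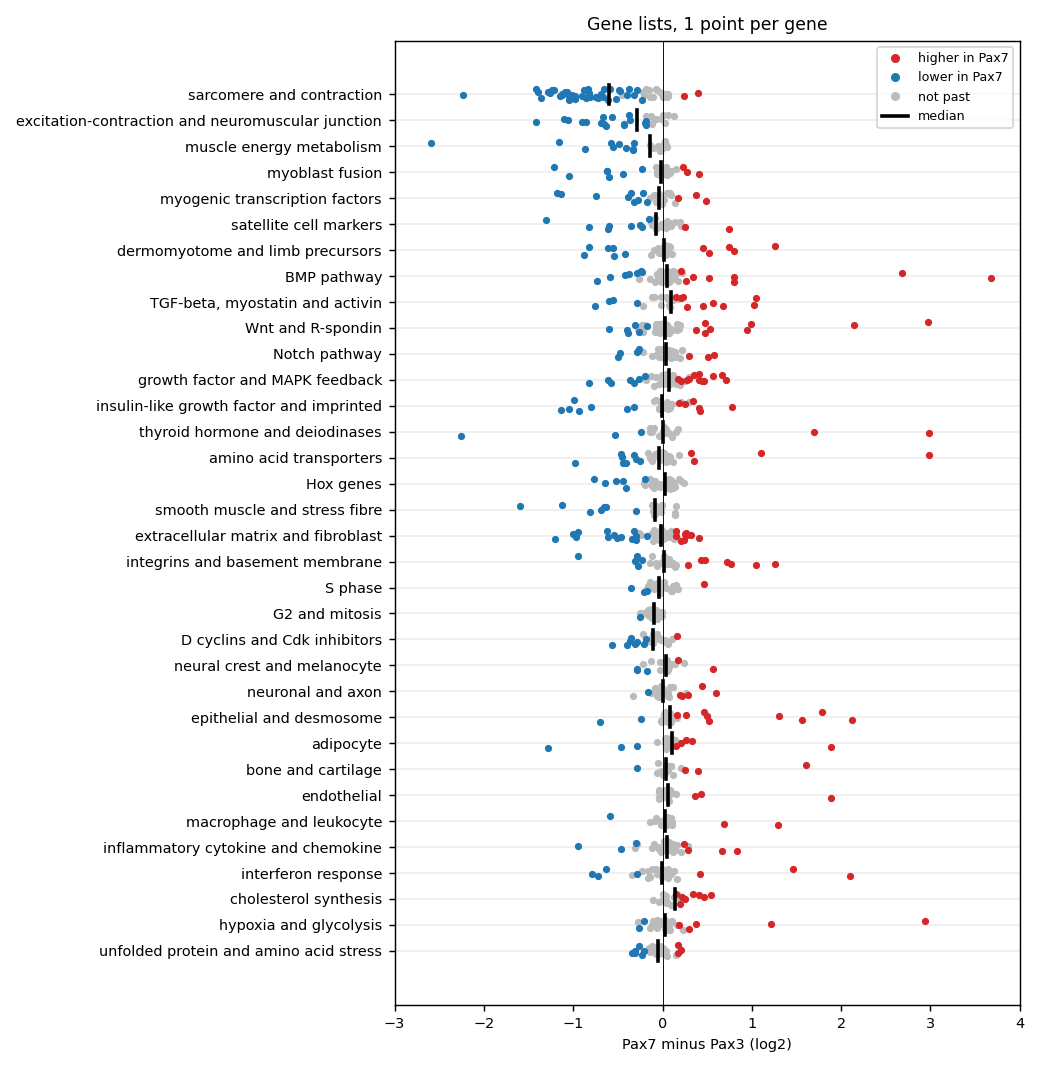
Difference in log2 intensity (Pax7 minus Pax3) for the members of each gene list, with 1 point per gene and a bar at the median. The sarcomere list is shifted furthest (41 of 64 lower, median -0.60), and most other medians lie near 0.

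Against the level of the empty-vector cells, given as a description with no test, the genes at least 1 log2 unit apart fell into several arrangements. In 38 of the 111 higher genes the Pax3 mean lay within 0.5 units of control and the Pax7 mean at least 1 unit away, as for Slc7a8, Gpm6a, Gpr39, Adamtsl3 and Wnt7a. In 3, Prkch, Foxc2 and Garem1, the Pax7 mean was near control and the Pax3 mean away. Of the 65 lower genes 14 had Pax3 near control and Pax7 away, including Myl4, Cav1, Mybpc1, Pygm, Tnnt2 and Sgce. In 4, Extl1, Cd36, Rasgrp3 and Tcerg1l, Pax7 was near control and Pax3 away. In 32 of the higher and 32 of the lower genes, such as Bmp4, Bmp6, Car3, Dio2, Myog and Ttn, both means lay at least 1 unit from control on the same side. Both distances use the same control arrays, so nothing is read from these counts. The control mean lay between the means of both groups, at least 0.5 units from each, in 4 higher genes (Pax7, Isg20, Atp1b1 and Slc25a13) and in 2 lower ones. Among all genes past the threshold, the control mean lay between in 257 of 1448 higher (17.7%) and 235 of 1394 lower genes (16.9%). This is near the share over all genes tested, 19.4% of those with the higher mean in Pax7 and 15.5% of those with the lower. The distances of 0.5 and 1 were chosen after the values were seen.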

How the data were processed

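The authors deposited log2 intensities after RMA, made in R 2.10.0 per the submitters' processing notes. For the genome build, annotation version and filters, nothing is given in the sources used here. The labels give biotin-labelled total RNA on Affymetrix arrays. Values ran over 25668 probe sets, of which 20777 carried 1 symbol in the platform's probe annotation, 232 several and 4659 none. Of these, 20696 were found by identifier in a RefSeq table, with 0 changes of symbol. For 564 genes with several probe sets the brightest was used.

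A mean per group was fitted to the 6 Pax3 and Pax7 arrays in limma 3.58.1 under R 4.3.3 (lmFit, eBayes; residual df 4, prior df 3.27), with Benjamini-Hochberg adjustment over 19661 genes and a threshold of 0.05. Errors of differences are moderated standard errors. The number of arrays limits the precision. The script was tested on simulated data.

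The members and the 36 gene lists (1125 entries, 1061 measured) were chosen with earlier results of these data known, and list counts carry no test. Named genes were Pax3, Pax7, Bmp4, Bmp6, Slc7a8, Rspo1, Myl1 and Dio2, the 15 largest differences each way without overlap between groups, and up to 4 members a list past the threshold, 141 in all. Clone and predicted symbols, olfactory receptors, small RNAs and lymphocyte receptor segments were not named. Further members, added to complete a role, and Mir206, Mir133a-1, Mir1a-1, Mir145a, Mir181b-1, Prkch, Garem1, Rasgrp3, Tcerg1l, Slc25a13 and Atp1b1 were named after their values were seen. Alternatives covered all 9 arrays, a replicate block, dim genes, a trended robust prior, centring, quantile normalisation, all probe sets, a minimum fold of 1.2 and each array left out.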

Additional observations from a re-analysis of the deposited data

How the results depend on the processing

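The count of 2842 genes past the threshold was 3315 with all 9 arrays in the fit, 2671 with a replicate block, 2838 without the dimmest 50% of genes, 3179 with a trended robust prior, 2932 after median centring, 3391 after a second quantile normalisation and 2933 over all probe sets. The test against a minimum fold of 1.2 left 720. Median centring moved the split to 1676 higher and 1256 lower, from 1448 and 1394. Leaving out 1 array gave 1807 to 3807 genes in all, 940 to 1700 higher and 838 to 2107 lower, the highest counts without Pax3 replicate 3 and the lowest without Pax7 replicate 2 or 3. Genes at least 1 log2 unit apart numbered 169 to 189 over these, and 0 of the 176 lost the call. Of the 141 named genes 19 lost it without at least 1 array, among them Mstn, Cdon, Hoxc8, Sqle, Stard4, Cxcl10, Alpl, Tubb3 and Xist. Same-numbered arrays of both groups deviated together at r = 0.067, 0.009 and 0.225, so the numbers were not taken as pairs, and the block ended the calls of Pole and Tfap2a among the named genes. Direction changed for no named gene in any setting. Among 15263 genes without identical values inside the Pax3 or Pax7 arrays, 2348 (15.4%) passed. Signal near background limits low probe sets, such as those at the Cd36 level.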

Other observations

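Outside the gene lists, further genes at least 1 log2 unit apart are given here, chosen after their values were seen and with no claim about a theme. Among the rises were genes of secreted peptides and of their processing: the natriuretic peptide Nppb (1.47), cholecystokinin, Cck (1.78), carboxypeptidase E, Cpe (1.48), and the secreted glycoprotein Nell2 (2.00). Cck averaged 4.87 in Pax3 arrays, 4.63 in control arrays and 6.65 in Pax7 arrays. Transcription factors among the rises were Klf4 (1.36), Nfatc2 (1.28), Gata4 (1.14) and Irx3 (1.02), and Ebf1 fell (-1.22). Gata4, a factor known from heart and endoderm, averaged 8.53 in Pax3 arrays and 9.67 in Pax7 arrays, against 7.81 in control arrays. Receptors that rose were Mertk (1.72), which binds dying cells, the prokineticin receptor Prokr1 (1.76) and the thyrotropin receptor Tshr (1.02).

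Among the falls outside the lists were the muscle genes Mustn1 (-1.20), Sntb1, a syntrophin of the dystrophin complex (-1.17), and Gatm, an enzyme of creatine synthesis (-1.06). The secreted protein C1qtnf3 fell by 1.26. Genes of the caveola, a pit in the cell membrane, differed in opposite directions. Cavin2 averaged 6.51 in Pax3, 8.06 in Pax7 and 9.60 in control arrays (difference 1.55), while Cav1 averaged 10.70 in Pax3, 9.40 in Pax7 and 10.77 in control arrays (-1.30). All genes named here passed the threshold in limma, with the largest adjusted p at 0.000277 for Ebf1.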
